A study of Ursus arctos with 12 samples.

Results

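The genes of the insulin, AKT and mTOR pathway were followed in the thigh muscle of 6 free-ranging brown bears (Ursus arctos), between winter hibernation and the active summer period. Members were the rows of the count table whose symbol is on a list of 52 genes that runs from the insulin receptor to the lysosomal machinery that switches on mTOR, with 30 or more reads summed over the libraries. This gave 51 genes of the 30249 rows of the table, and of the 17290 genes with enough reads. The remaining gene, TBC1D7, had no row under its symbol.

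Each bear, 2 to 3 years old, gave a vastus lateralis biopsy while hibernating in winter and another while active in summer, so the 12 libraries form 6 pairs, with 6 libraries per season. The animals were wild, carry a number in the labels by which they are named below, and were anesthetized for capture and sampling, with no other treatment in the design. The labels give no sex, weight or time since feeding. Messenger RNA was sequenced, so the values are transcript levels and say nothing of protein amount or of phosphorylation, by which this pathway is switched.

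Insulin binds its receptor on the muscle fibre, the receptor phosphorylates adaptor proteins of the IRS family, and these recruit phosphoinositide 3-kinase (PI3K), whose lipid product brings PDPK1 and AKT together at the membrane. AKT drives glucose uptake and glycogen storage and releases the brake that the TSC complex holds on RHEB, the small GTPase that activates mTOR. The kinase mTOR works in complex 1 (mTORC1, defined by RPTOR), which promotes protein synthesis when Rag GTPases bring it to the lysosome, and in complex 2 (mTORC2, defined by RICTOR), which phosphorylates AKT. In skeletal muscle the pathway is known for the control of fibre size and of insulin-stimulated glucose uptake.

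The libraries held 20191068 to 27283155 reads on genes in summer and 16742406 to 32140160 in winter. The 8 muscle fibre markers with a row under their symbol, among them creatine kinase CKM and titin TTN, had at least 35952 reads in every library. They summed to 108855 to 192104 CPM (reads of a gene per 1000000 reads on genes) in summer and 115888 to 153366 CPM in winter. Of these 8 markers, 1 was higher (TTN) and 2 lower (ACTA1 and MB). MYH7, also listed as a fibre marker, had no row under its symbol. The row with its gene ID in another brown bear assembly was called lower (0.632-fold), in 6 of 6 bears. Of all genes tested, 19.6% were called higher and 21.2% lower, by the test given below. Among markers of other cells, those of fibroblasts and endothelium had the largest shares called lower. The 5 fibroblast markers summed to 3063 to 7897 CPM in summer and 228 to 1282 CPM in winter (0 higher and 4 lower). The collagen genes COL3A1 and COL1A1 had the highest summer medians of the 5 (3608 and 1264 CPM) and the largest falls (0.0296-fold and 0.0278-fold). LUM was 0.228-fold and DCN 0.532-fold, and PDGFRA (0.727-fold) was not called. The 5 endothelial markers summed to 577 to 916 CPM in summer and 381 to 449 CPM in winter (0 higher and 4 lower). Leukocyte markers summed to 34.4 to 65.9 CPM in summer and 19.6 to 42.5 CPM in winter (0 higher and 3 lower of 5), smooth muscle markers to 100.4 to 159 and 66.3 to 131 CPM (0 and 2 of 4), adipocyte markers to 297 to 1376 and 216 to 459 CPM (0 and 1 of 5), and Schwann cell markers to 8.43 to 28.3 and 3.02 to 119 CPM (0 and 1 of 4). Of the adipocyte markers FABP4 had the highest median in both seasons (418 CPM in summer and 238 CPM in winter) and was called lower (0.558-fold). The other 4 were not called (ADIPOQ 1.00-fold, PLIN1 1.16-fold, CIDEC 0.477-fold and LEP 5.83-fold). The highest adipocyte sum, 1376 CPM, was that of the summer library of bear 1316. The highest Schwann cell sum, 119 CPM, was that of the winter library of bear 1509. LEP and SOX10 had 0 reads in at least 1 library, and no other of these markers did. The part of these cells in the results below was not tested, and in bulk muscle fewer cells of a type and less RNA per cell cannot be told apart.

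Winter was compared with summer within each bear by edgeR's quasi-likelihood test, with the bear as a block and Benjamini-Hochberg adjustment over the 17290 genes. A gene is called where its adjusted p is under 0.05, and every adjusted p below comes from this test unless another is named. Fold changes are winter over summer, standard errors (SE) are on the log2 scale, and levels are CPM after TMM scaling, given as the lowest, median and highest of the 6 bears of a season. The test was repeated in 14 alternatives, with another scaling, filter or tool, without the block, or with a bear left out, and they are named where a call depended on them.

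Of the 51 genes, 11 were higher and 11 lower in winter, and 29 were not called. The members' shares of 21.6% higher and 21.6% lower lay near the background of the whole muscle transcriptome, in which 19.6% of genes were called higher and 21.2% lower, 40.8% in all. Without the bear as a block 12 members were higher and 11 lower, where 39.5% of all genes were called, 19.6% higher and 19.9% lower. Their median log2 fold change was −0.02, against −0.01 over all genes tested. All 6 bears were higher in winter for 11 members and lower for 10. Of all genes tested, 18.4% were higher and 19.0% lower in all 6 bears. The seasons did not overlap for 5 members that lay above in winter and 4 that lay below, where 9.12% and 8.21% of all genes, 17.3% in all, did so. Changes were moderate: 0 of the 51 had a fitted log2 fold change beyond 1 in either direction, while 16.9% of all genes were called with a change of that size. The median size of the change was 0.34 on the log2 scale for members and 0.46 for all genes, which had a median of 1850 reads in total against 10267 for the members. What follows is therefore a description of which positions of the pathway moved and which way, not of a pathway that changed more than the rest of the muscle.

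**Figure D1:**
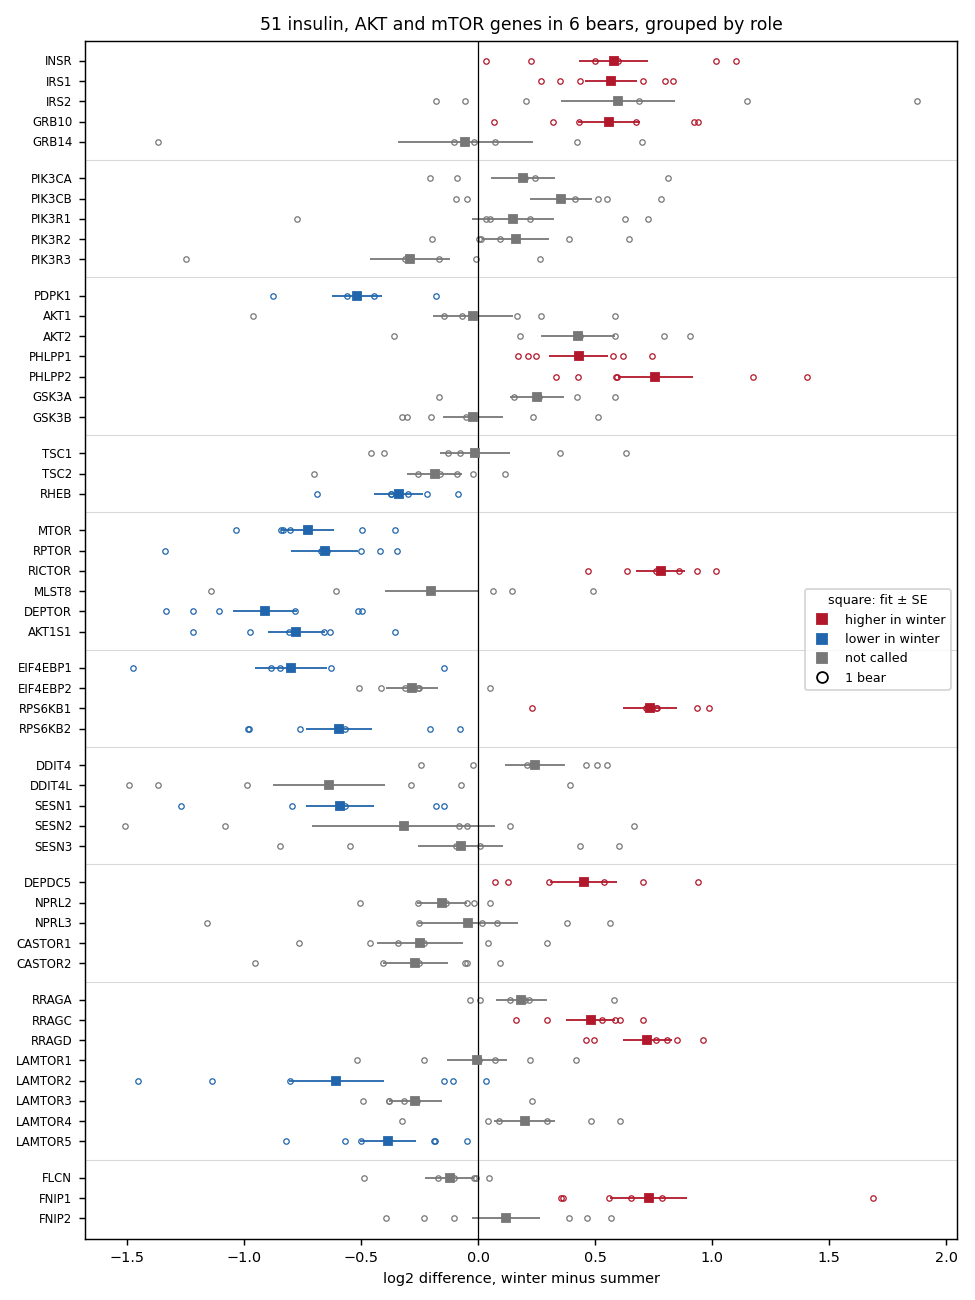
Winter minus summer difference of each of the 51 genes on the log2 scale (x axis), genes grouped by role (y axis); open circles are single bears, squares the fitted change with its SE, red called higher, blue called lower and grey not called. INSR, IRS1 and GRB10 lie to the right of 0 and MTOR, RPTOR, AKT1S1 and DEPTOR to the left, with RICTOR on the right.

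At the entry of the pathway, of the 5 receptor and adaptor genes 3 rose in winter (INSR, IRS1 and GRB10), 0 fell and 2 were not called, where 19.6% of all genes were called higher, with 0 lower also at an unadjusted p below 0.05 and in the fit without the block. INSR, the insulin receptor, stood at 54.0, 64.4 and 76.7 CPM in summer (lowest, median, highest) and at 74.1, 95.4 and 119 CPM in winter. It was 1.49-fold higher (SE 0.15, adjusted p = 0.0101) and higher in 6 of 6 bears. In the bear with the least change the rise was only 0.03 on the log2 scale. The ranges of the seasons overlapped. IRS1, the adaptor that links the receptor to PI3K, stood at 34.0, 53.4 and 58.7 CPM in summer and 57.8, 68.5 and 97.3 CPM in winter. It rose 1.48-fold (SE 0.11, adjusted p = 0.00249) in 6 of 6 bears, by 0.27 to 0.83 on the log2 scale.

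GRB10, which binds the activated receptor and restrains it, moved in the same direction as the receptor. Its level was 35.9, 50.4 and 66.4 CPM in summer and 54.0, 70.0 and 97.7 CPM in winter, a 1.47-fold rise (SE 0.13, adjusted p = 0.0066) seen in 6 of 6 bears. IRS2, the second adaptor, varied between bears from −0.18 to 1.88 on the log2 scale, higher in 4 of 6, and was not called at 1.51-fold (SE 0.24, adjusted p = 0.0724). It was called without bear 1512 (adjusted p = 0.0437) and in DESeq2 with the block (0.0308), within 0.0308 to 0.202 over the alternatives. GRB14, the other member of the GRB10 family, had 14 to 97 reads per library and was higher in 3 and lower in 3 of the 6 bears (0.961-fold, SE 0.29, adjusted p = 0.891).

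Against 40.8% of all genes called, the 5 PI3K subunits gave 0 calls in either direction, with 1 higher and 0 lower at an unadjusted p below 0.05. That gene was PIK3CB, a catalytic subunit, at 22.3, 24.3 and 30.6 CPM in summer and 22.7, 34.9 and 40.7 CPM in winter (1.28-fold, SE 0.13, adjusted p = 0.0544). It stood at the edge of the threshold: without the replicate block its adjusted p was 0.0478, without bear 1317 0.0345 and without bear 1511 0.0277, the alternatives spanning 0.0277 to 0.198, and 7 of the 14 called it. PIK3CA, the other catalytic subunit among the members, had a 1.14-fold difference (SE 0.14, adjusted p = 0.287). The regulatory subunits PIK3R1, PIK3R2 and PIK3R3 had fold changes of 1.11, 1.12 and 0.817, with adjusted p values of 0.524, 0.4 and 0.195. PIK3R1 was at 191 CPM in the summer library of bear 1305 and at 83.4 to 95.9 CPM in the other summer libraries.

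The AKT step held changes of opposite direction. PDPK1, the kinase that phosphorylates AKT in its activation loop, fell from 36.7, 42.9 and 56.1 CPM in summer to 27.9, 31.2 and 32.4 CPM in winter. This was 0.698-fold (SE 0.11, adjusted p = 0.00349), lower in 6 of 6 bears, and every winter library lay below every summer library. The phosphatases PHLPP1 and PHLPP2, which remove a phosphate from AKT, both rose. PHLPP2 went from 7.5, 9.71 and 12.2 CPM in summer to 13.6, 16.1 and 22.1 CPM in winter (1.69-fold, SE 0.16, adjusted p = 0.00367).

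PHLPP1 went from 7.63, 9.60 and 11.2 CPM in summer to 11.8, 12.7 and 13.7 CPM in winter (1.35-fold, SE 0.13, adjusted p = 0.0195). Both phosphatase genes were higher in 6 of 6 bears, with no overlap between seasons. The PHLPP1 call was lost when library totals replaced TMM (adjusted p = 0.0751) and without bear 1305 (0.0676), 1316 (0.0565) or 1511 (0.0537), within 0.000954 to 0.0751 over the alternatives, while the call of PHLPP2 was kept in each.

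AKT1 was not called and AKT2, the isoform that carries most of the insulin response of glucose uptake in muscle, lay at the threshold. AKT1 stood at 58.6, 86.4 and 101 CPM in summer and 45.1, 85.3 and 102 CPM in winter (0.984-fold, adjusted p = 0.926), and the 95% interval of its log2 fold change ran from −0.47 to 0.42. AKT2 stood at 45.1, 61.9 and 73.0 CPM in summer and 44.9, 85.7 and 98.9 CPM in winter (1.34-fold, SE 0.16, adjusted p = 0.0504), higher in 5 of 6 bears. The winter library of bear 1509 was the lowest of the season for both genes, at 45.1 CPM for AKT1 and 44.9 CPM for AKT2 against 80.6 to 102 and 82.6 to 98.9 CPM in the others. Without this bear the log2 fold change of AKT2 was 0.59 and its adjusted p 0.00425 (0.00425 to 0.147 over the alternatives), and AKT2 was called in 7 of the 14 alternatives. Without the same bear the log2 fold change of AKT1 was 0.17 with an adjusted p of 0.296 (0.296 to 0.991). Of the GSK3 kinases that AKT inhibits to allow glycogen synthesis, GSK3A had a 1.19-fold difference (adjusted p = 0.103) and GSK3B a 0.983-fold difference (adjusted p = 0.895). Without bear 1317 GSK3A was called (adjusted p = 0.0417, 0.0417 to 0.356 over the alternatives).

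**Figure D2:**
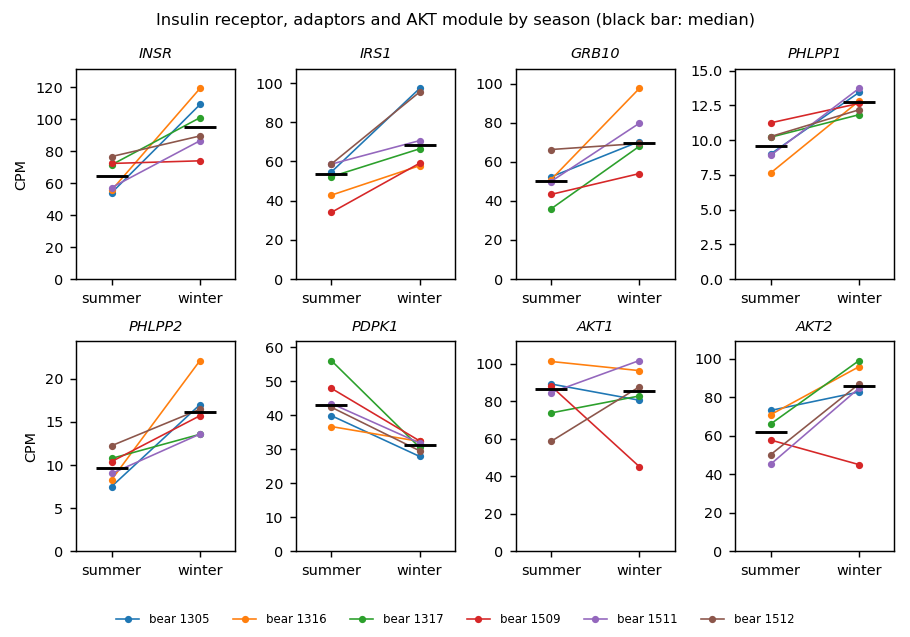
CPM (y axis, from 0) of 8 genes of the receptor and AKT steps in summer and winter; each line joins the 2 libraries of a bear and the black bars are medians. INSR, IRS1, GRB10, PHLPP1 and PHLPP2 go up and PDPK1 goes down in all 6 bears, while the line of bear 1509 goes down for AKT1 and AKT2.

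Between AKT and mTOR, TSC1 and TSC2, which form the brake on RHEB, were not called (0.989-fold, adjusted p = 0.943, and 0.878-fold, adjusted p = 0.231). The 95% intervals of their log2 fold changes were −0.40 to 0.37 and −0.49 to 0.12. RHEB itself stood at 72.9, 90.1 and 96.3 CPM in summer and 56.3, 72.7 and 82.7 CPM in winter, 0.79-fold (SE 0.10, adjusted p = 0.0236), lower in 6 of 6 bears. This call was lost without bear 1305 (adjusted p = 0.052), 1316 (0.0709), 1317 (0.0509) or 1511 (0.0516), within 0.0134 to 0.0709 over the alternatives. TBC1D7, the third subunit of the TSC complex, is listed in the RefSeq table of another brown bear assembly under the gene ID 113264465, and the count table has a row with that number as a LOC symbol. This row, which is not counted among the members, stood at 14.1, 15.0 and 20.2 CPM in summer and 5.76, 7.63 and 11.7 CPM in winter (0.512-fold, SE 0.13, adjusted p = 0.000331), lower in 6 of 6 bears with no overlap.

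Of the 6 genes of the mTOR complexes 4 fell, 1 rose and 1 was not called, where 21.2% of all genes fell and 19.6% rose. Whether this differs from the other steps was not tested. MTOR, the kinase of both complexes, stood at 103, 126 and 177 CPM in summer and 70.3, 78.8 and 90.9 CPM in winter. It was 0.603-fold (SE 0.11, adjusted p = 0.000642) and lower in 6 of 6 bears, with all winter libraries below all summer libraries. RPTOR, the scaffold that brings substrates to mTORC1, fell from 11.4, 15.7 and 20.1 CPM in summer to 7.89, 9.25 and 12.3 CPM in winter (0.634-fold, SE 0.14, adjusted p = 0.00435), in 6 of 6 bears.

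The inhibitory subunits fell too. AKT1S1, also called PRAS40, which holds mTORC1 back until AKT phosphorylates it, went from 24.9, 30.3 and 41.6 CPM in summer to 13.0, 19.0 and 23.3 CPM in winter (0.583-fold, SE 0.12, adjusted p = 0.000757). DEPTOR, an inhibitor found in both complexes, went from 38.5, 44.1 and 67.8 CPM in summer to 15.5, 27.6 and 31.4 CPM in winter (0.532-fold, SE 0.14, adjusted p = 0.000517). DEPTOR had the largest fitted change of the 51 genes. For both, every bear was lower in winter and the seasons did not overlap.

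RICTOR, the scaffold of mTORC2, moved the other way. It stood at 25.9, 30.5 and 40.7 CPM in summer and 39.3, 54.1 and 63.9 CPM in winter, a 1.72-fold rise (SE 0.11, adjusted p = 0.000287) in 6 of 6 bears, by 0.47 to 1.02 on the log2 scale. Only the lowest winter library, of bear 1511, lay below the highest summer library, of bear 1512. MLST8, a subunit that both complexes share, was not called (0.869-fold, SE 0.20, adjusted p = 0.44), higher in 3 and lower in 3 bears. The ratio of RICTOR to RPTOR, which does not depend on how the libraries are scaled, was higher in winter in 6 of 6 bears, by a mean of 1.43 ± 0.45 on the log2 scale (SD, n = 6 bears; 0.89 to 2.2 in single bears).

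**Figure D3:**
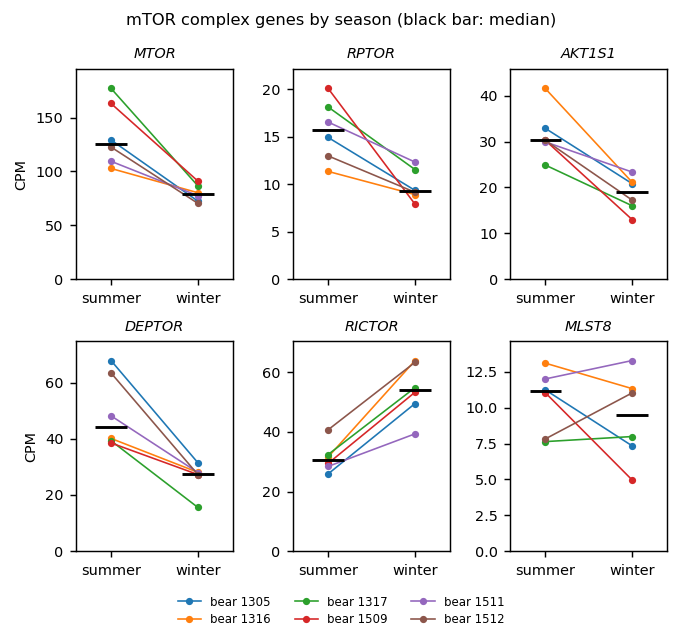
CPM (y axis, from 0) of 6 genes of the mTOR complexes in summer and winter; each line joins the 2 libraries of a bear and the black bars are medians. MTOR, RPTOR, AKT1S1 and DEPTOR go down and RICTOR goes up in each bear, while MLST8 goes in both directions.

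Of the 4 substrates of mTORC1 1 rose, 2 fell and 1 was not called, where 19.6% of all genes rose and 21.2% fell. The S6 kinase genes went opposite ways. RPS6KB1, which encodes the S6 kinase S6K1, rose from 51.2, 58.5 and 74.7 CPM in summer to 70.0, 107 and 127 CPM in winter (1.66-fold, SE 0.12, adjusted p = 0.000723), in 6 of 6 bears. RPS6KB2, which encodes S6K2, fell from 29.4, 34.9 and 51.1 CPM in summer to 16.6, 23.8 and 35.9 CPM in winter (0.661-fold, SE 0.14, adjusted p = 0.00671), also in 6 of 6. For both genes the seasons overlapped, and bear 1511 showed the smallest difference for RPS6KB1 (0.23 on the log2 scale).

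EIF4EBP1, or 4E-BP1, which blocks cap-dependent translation unless mTORC1 phosphorylates it, fell from 13.8, 27.9 and 30.3 CPM in summer to 8.90, 13.4 and 24.5 CPM in winter (0.574-fold, SE 0.15, adjusted p = 0.00215). All 6 bears were lower, by 0.15 to 1.48 on the log2 scale. EIF4EBP2 stood at 365, 435 and 554 CPM in summer and 307, 385 and 416 CPM in winter (0.822-fold, SE 0.11, adjusted p = 0.0636) and was not called, though lower in 5 of 6 bears. It was called with library totals (adjusted p = 0.0452), in DESeq2 with the block (0.0330), in limma voom (0.0473) and without bear 1316 (0.0412). The alternatives spanned 0.033 to 0.147.

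Among the stress-induced inhibitors of mTORC1, 1 of 5 fell and 0 rose, where 21.2% of all genes fell and 19.6% rose. At an unadjusted p below 0.05, and also in the fit without the block, 2 were lower and 0 higher. SESN1, a sestrin that responds to p53 and to amino acid lack, went from 96.6, 126 and 176 CPM in summer to 72.9, 84.2 and 99.2 CPM in winter (0.664-fold, SE 0.15, adjusted p = 0.00863), in 6 of 6 bears. DDIT4L, known as REDD2, stood at 212, 332 and 582 CPM in summer and 147, 220 and 278 CPM in winter (0.642-fold, SE 0.24, adjusted p = 0.0523), lower in 5 of 6 bears and not called. Its adjusted p was 0.0324 without the replicate block, 0.0384 without bear 1509 and 0.0153 without bear 1511, the alternatives spanning 0.0136 to 0.166, and 8 of the 14 called it.

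DDIT4, or REDD1, which glucocorticoids and hypoxia induce, stood at 15.2, 24.8 and 63.4 CPM in summer and 22.3, 31.5 and 62.5 CPM in winter (1.18-fold, SE 0.13, adjusted p = 0.154). Bear 1511 was the highest of both seasons and bear 1509 the lowest. SESN3 was not called (0.949-fold, adjusted p = 0.764). SESN2, with 3 to 18 reads per library, was not called (0.802-fold, SE 0.39, adjusted p = 0.541), and the 95% interval of its log2 fold change included the value of SESN1.

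At the lysosome, amino acids reach mTORC1 through the Rag GTPases, which the Ragulator complex anchors, GATOR1 turns off and the folliculin complex turns on. RRAGD rose from 21.5, 29.7 and 35.4 CPM in summer to 36.5, 45.4 and 57.8 CPM in winter (1.65-fold, SE 0.11, adjusted p = 0.000455). RRAGC, its paralog, rose from 57.7, 64.1 and 83.4 CPM to 87.8, 93.2 and 103 CPM (1.39-fold, SE 0.11, adjusted p = 0.00446). Both were higher in 6 of 6 bears with no overlap between seasons. RRAGA, the partner with which they pair, was not called (1.14-fold, SE 0.11, adjusted p = 0.197).

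The 5 Ragulator subunits, LAMTOR1 to LAMTOR5, gave 2 falls and 0 rises, where 21.2% of all genes fell and 19.6% rose. LAMTOR2 stood at 12.4, 18.1 and 33.5 CPM in summer and 8.69, 11.7 and 17.4 CPM in winter (0.657-fold, SE 0.20, adjusted p = 0.0333), lower in 5 of 6 bears. LAMTOR5 stood at 50.3, 90.0 and 98.7 CPM in summer and 48.7, 64.3 and 78.3 CPM in winter (0.764-fold, SE 0.12, adjusted p = 0.0249), lower in 6 of 6. Both calls were fragile. That of LAMTOR2 was lost without bear 1305 (adjusted p = 0.104), 1316 (0.103) or 1509 (0.0692), within 0.0123 to 0.104 over the alternatives, and that of LAMTOR5 without the replicate block (0.0539) and without bear 1305 (0.0826), 1316 (0.0694) or 1512 (0.0761), within 0.0118 to 0.0826. LAMTOR1, LAMTOR3 and LAMTOR4 had fold changes of 0.996, 0.83 and 1.15 (adjusted p = 0.978, 0.0801 and 0.249). LAMTOR3 was called without bear 1509 (adjusted p = 0.0138) and in DESeq2 without the block (0.0484), within 0.0138 to 0.213 over the alternatives.

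In the folliculin complex, FNIP1 rose while its paralog FNIP2 and folliculin itself were not called. FNIP1, a partner of folliculin that also binds AMPK, went from 19.7, 31.8 and 38.9 CPM in summer to 41.2, 48.5 and 63.5 CPM in winter (1.66-fold, SE 0.17, adjusted p = 0.0055), higher in 6 of 6 bears without overlap. FNIP2 had a 1.09-fold difference (adjusted p = 0.544) and FLCN a 0.918-fold difference (adjusted p = 0.377). Of GATOR1, DEPDC5 went from 8.62, 8.76 and 10.2 CPM in summer to 9.14, 12.1 and 16.8 CPM in winter (1.37-fold, SE 0.14, adjusted p = 0.0279), in 6 of 6 bears. Its call was lost with library totals (adjusted p = 0.0967) and without bear 1316 (0.083), 1509 (0.0509) or 1512 (0.0737), within 0.00517 to 0.0967 over the alternatives. The other GATOR1 subunits NPRL2 and NPRL3 and the arginine sensors CASTOR1 and CASTOR2 were not called, with fold changes of 0.83 to 0.97.

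**Figure D4:**
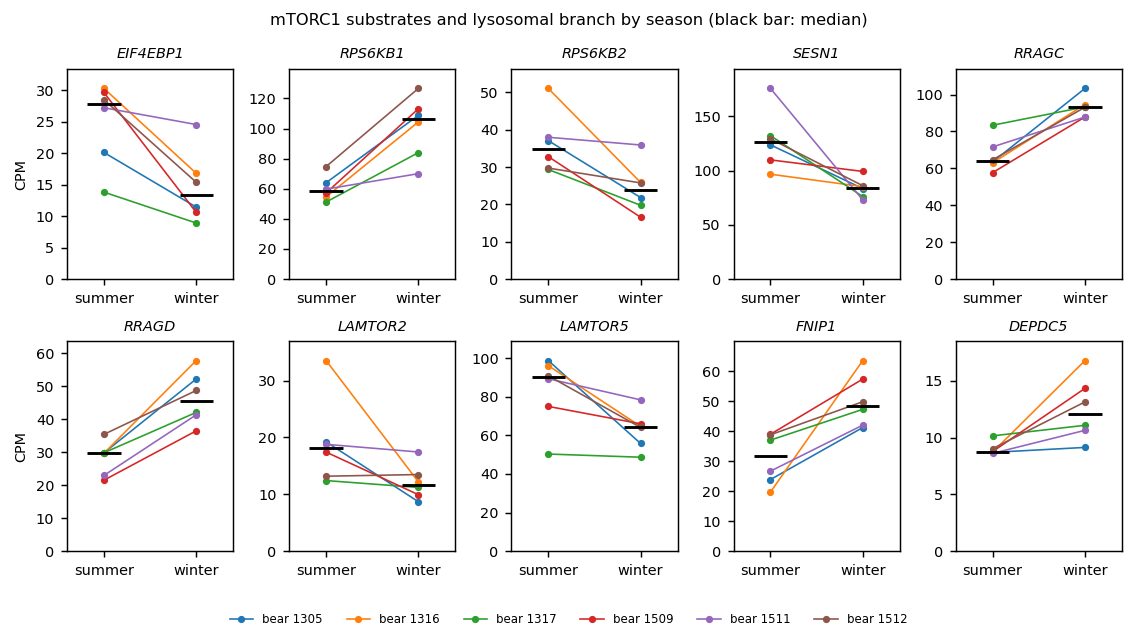
CPM (y axis, from 0) of the 10 called genes among the mTORC1 substrates, the stress-induced inhibitors and the lysosomal branch in summer and winter; each line joins the 2 libraries of a bear and the black bars are medians. RPS6KB1, RRAGC, RRAGD, FNIP1 and DEPDC5 go up in all 6 bears, and LAMTOR2 goes down in 5.

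Whether partners changed unequally was examined in 16 pairs of members, 14 of them paralogs, 1 the partners TSC1 and TSC2 and 1 the scaffolds of the mTOR complexes. The pairs were chosen after their values were seen, so the winter minus summer changes of their log2 ratios are a description. A two-sided exact permutation test that flips the sign of each bear's change cannot give a p under 0.03125 with 6 bears, and adjusted over the 16 pairs none could pass unless 10 or more reached it. It was reached by 3 pairs, and the smallest adjusted p was 0.125, which says little either way. These were RICTOR to RPTOR, given above, RPS6KB1 to RPS6KB2 and AKT2 to AKT1. The RPS6KB1 to RPS6KB2 ratio was higher by 1.33 ± 0.63 on the log2 scale (SD, n = 6 bears). That of AKT2 to AKT1 was higher by 0.45 ± 0.17 (SD, n = 6 bears). RICTOR and RPS6KB1 rose and RPTOR and RPS6KB2 fell in all 6 bears. Their ratios therefore had to rise in each bear and add nothing to the calls of the single genes.

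The AKT2 to AKT1 ratio was higher in 6 of 6 bears, by 0.21 to 0.64 on the log2 scale, including bear 1509, in which both genes were low in winter. The FNIP1 to FNIP2 ratio was higher in 5 of 6 bears, at 0.62 ± 0.53 (SD, n = 6 bears), as was EIF4EBP2 to EIF4EBP1, at 0.52 ± 0.43 (SD, n = 6 bears). The ratio of IRS1 to IRS2 went from −1.04 to 0.88 in single bears, with a mean of −0.05.

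**Figure D5:**
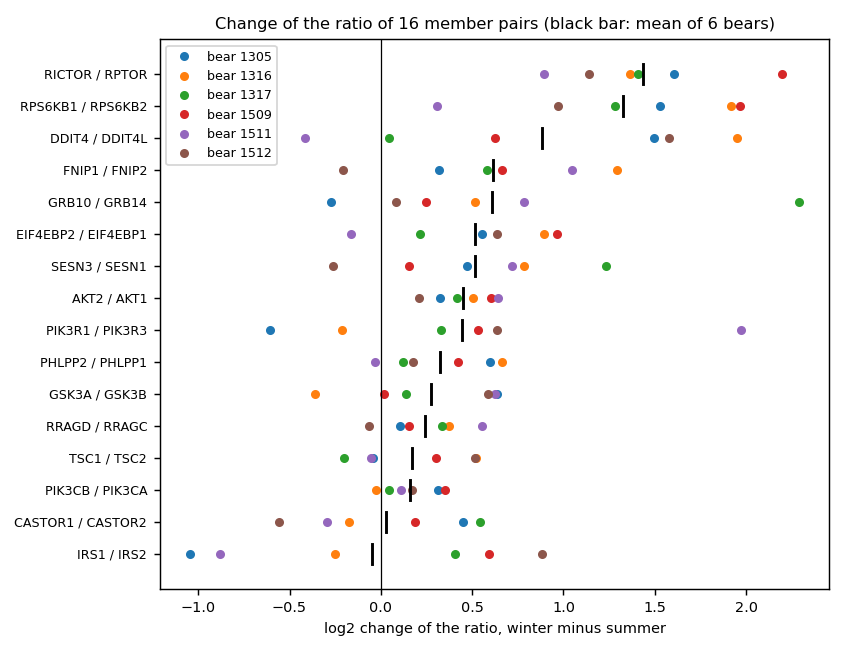
Winter minus summer change of the ratio of 2 members on the log2 scale (x axis) for 16 pairs (y axis), with a coloured point per bear and a black bar at the mean of the 6 bears. All 6 points lie to the right of 0 for RICTOR to RPTOR, RPS6KB1 to RPS6KB2 and AKT2 to AKT1, and on both sides of 0 for the other 13 pairs.

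Other genes of the same pathway, taken from a list of 46 that are not members, gave 10 higher and 7 lower in winter (21.7% and 15.2%, against 19.6% and 21.2% of all genes) with a median log2 fold change of −0.04. The list has 20 further insulin signaling genes, of which 4 rose and 4 fell, and 26 further mTOR genes, of which 6 rose and 3 fell. RRAGB, the closest paralog of RRAGA, had the largest change of the list. It went from 6.37, 7.17 and 8.87 CPM in summer to 20.5, 24.2 and 29.0 CPM in winter, 3.35-fold (SE 0.12, adjusted p = 8.58e-06), higher in 6 of 6 bears with no overlap. RRAGA and RRAGB are near-identical in protein sequence, and how reads of 50 bases were shared between them is not given in the sources used here.

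The next largest rises were EIF4B, an initiation factor that S6 kinases phosphorylate (470, 523 and 654 CPM in summer and 965, 1065 and 1283 CPM in winter, 2.06-fold, SE 0.12, adjusted p = 0.000144), TRIB3, a pseudokinase that binds AKT (1.56-fold, SE 0.19, adjusted p = 0.0198), and ITFG2, a subunit of the KICSTOR complex that tethers GATOR1 to the lysosome (1.53-fold, SE 0.12, adjusted p = 0.00248). The call of TRIB3 was lost without bear 1316 (adjusted p = 0.054), 1317 (0.061) or 1512 (0.0553), within 0.00236 to 0.061 over the alternatives. The largest falls were KPTN, another KICSTOR subunit (6.81, 7.72 and 9.62 CPM in summer and 2.00, 3.07 and 4.81 CPM in winter, 0.388-fold, SE 0.17, adjusted p = 0.000182), SH2B2, an adaptor of the insulin receptor (0.427-fold, SE 0.28, adjusted p = 0.00506), PIK3R5, a regulatory subunit of the PI3K of leukocytes with 8 to 32 reads per library (0.537-fold, SE 0.25, adjusted p = 0.0159), and PPP2R5B, a subunit of protein phosphatase 2A (0.565-fold, SE 0.15, adjusted p = 0.00147). Each of the rises and falls was seen in 6 of 6 bears, where 18.4% of all genes were higher and 19.0% lower in all 6. PIK3R5 was not called in DESeq2 with the replicate block (adjusted p = 0.0587, 0.00998 to 0.0587 over the alternatives). Of the 5 leukocyte markers 3 were called lower, as given above, and their part in the fall of PIK3R5 was not tested.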

How the data were processed

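The authors prepared stranded poly-A libraries from 12 biopsies, sequenced them as 50-base single reads, aligned these to the brown bear assembly ASM358476v1 with TopHat2 2.1.1, and counted reads per gene with featureCounts 1.6.2 on the reverse strand. The deposited values are raw counts, not normalized and not filtered. Alignments with more than 3 mismatches had been discarded. The labels name Bowtie2 2.2.9 and do not say how reads that map to several genes were treated.

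Samples were grouped by season and paired by the bear number in the titles. The same animals were captured in both seasons, by the study's methods. After each season mean was taken off, both libraries of the same bear correlated at 0.0903 to 0.344. Libraries of different bears in opposite seasons correlated at −0.214 to 0.142, with a median of −0.0634. The lowest same-bear value, that of bear 1509, lay within the range of different bears. In each season, 5 of 6 libraries correlated best, among the libraries of the other season, with that of their own bear. The lowest chi-square per gene between libraries of a season was 35.8, so none is a copy.

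Genes with a sum under 30 reads were dropped, and the counts, TMM-scaled, were fitted with glmQLFit and glmQLFTest (R 4.3.3, edgeR 4.0.16), with bear and season as terms. SEs are the log2 fold change over the root of F, and 95% intervals use 5 residual degrees of freedom. Differences in single bears use log2 CPM with a prior count of 2. The study tested with DESeq2, which is run here as an alternative. Alternatives were the fit without the block, RLE, library totals, no filter, filterByExpr, DESeq2 1.42.0 with and without the block, limma 3.58.1 voom, a stricter threshold (adjusted p under 0.01, with a fold of over 1.3 or under 0.77) and each bear left out. The code was tested on simulated data.

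The members and gene lists were chosen with earlier results of these data known. Every member is accounted for: called members are named with their levels, and of the other pathway genes the 4 largest rises and falls. Depth was 16742406 to 32140160 reads per library. No gene lengths were used, so levels are not compared between genes. No sequences or coordinates were used. The lane of each library was not used here.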

Additional observations from a re-analysis of the deposited data

Results flagged for a closer look

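In 11 of the 102 sets of 6 libraries (51 genes in 2 seasons), the highest or lowest library lay apart from the others by more than Dixon's 95% critical value. Chance flags about 5% of sets. In 5 of the 11 the library was the winter library of bear 1509, low each time. There AKT1 was at 5.50 log2 CPM (others 6.33 to 6.67), AKT2 at 5.49 (6.37 to 6.63), NPRL3 at 1.33 (2.49 to 3.07), LAMTOR1 at 4.82 (5.17 to 5.35) and LAMTOR4 at 4.43 (4.83 to 5.03). None of these 5 genes was called with all bears, and AKT2 alone was called without bear 1509.

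The winter library of bear 1317 was low for DEPTOR, at 3.97 log2 CPM (others 4.77 to 4.98). In summer, the same bear was high for PIK3R2, at 3.49 (2.58 to 2.92), and for DEPDC5, at 3.36 (3.12 to 3.19), and low for RHEB, at 6.19 (6.44 to 6.59). The summer library of bear 1305 was high for PIK3R1, at 7.58 (6.38 to 6.58), and that of bear 1316 for NPRL3, at 3.11 (2.21 to 2.50).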

How the results depend on the processing

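Of the 22 called members, 17 were called in each of the 14 alternatives that kept the threshold, all in the same direction. The calls of the other 5, PHLPP1, RHEB, DEPDC5, LAMTOR2 and LAMTOR5, were lost in some of them, as given beside each. With the stricter threshold 16 members were called, 8 higher and 8 lower. The calls lost were those of the same 5 genes and of INSR (adjusted p = 0.0101 in the main test). Of the other pathway genes, 10 higher became 6. The genes called of all those tested became 2115 higher and 2325 lower. In edgeR without the replicate block 12 members were higher and 11 lower. Between these edgeR fits PIK3CB and DDIT4L were called without the block only, LAMTOR5 with it only, and no other member changed its call. In DESeq2 with the block 14 were higher and 13 lower, and IRS2 and EIF4EBP2 were called with the block only and LAMTOR3 without it only. The members' median log2 fold change was −0.10 with library totals, which moved the median of all genes to −0.08, and −0.13 to 0.073 with a bear left out (−0.13 without bear 1316, 0.073 without bear 1509). The cause was not tested.

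Signs changed only for 7 members close to 0, none of them called. With a bear left out, GRB14 ranged from −0.25 to 0.23 (without bear 1317), AKT1 from −0.14 to 0.17 (1509), GSK3B from −0.13 to 0.040 (1512), TSC1 from −0.14 to 0.075 (1317), SESN3 from −0.21 to 0.082 (1512), NPRL3 from −0.17 to 0.17 (1509) and LAMTOR1 from −0.088 to 0.11 (1509). AKT1 was at 0.0051 in DESeq2 without the block, NPRL3 at 0.00010 without the replicate block and 0.0089 in DESeq2 without it, and LAMTOR1 at 0.0019 with RLE, 0.0063 with filterByExpr and 0.0020 in DESeq2 with the block. With a bear left out the RICTOR to RPTOR ratio rose by 1.28 to 1.54, an alternative chosen after seeing the data. SESN2 and GRB14 had the fewest reads of the members, and counting error was not separated from the spread between bears there.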
